A study of Mus musculus with 2 samples.

Results

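Enzymes that remove oxidants, keep glutathione and thioredoxin reduced, and detoxify reactive compounds were compared between calorie-restricted and control skeletal muscle of old mice. Genes were taken by name, as the superoxide dismutases (Sod), catalase (Cat), glutathione peroxidases (Gpx), peroxiredoxins (Prdx) with sulfiredoxin (Srxn1), all genes whose symbol begins with Txn, glutaredoxins (Glrx), enzymes of glutathione synthesis and reduction, glutathione transferases (Gst, Mgst), quinone reductases (Nqo), haem oxygenases (Hmox), metallothioneins 1 and 2, the Nrf transcription factors (Nfe2l) and their inhibitor Keap1. The names matched 66 of 10543 genes with a single symbol, among 23672 loci in the table, and all 66 averaged 1 FPKM or more over both libraries. The metallothionein genes Mt1 and Mt2 were merged into a single locus in the table and are therefore not among the 66.

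The calorie restriction (CR) library was made from thigh muscle of B6C3F1 mice, a hybrid strain, aged 26 months, which for 25 months had eaten about 40% less energy than controls, on a diet enriched to hold intakes of protein, vitamins and minerals per body weight near those of controls. The control library came from thigh muscle of B6C3F1 mice of the same age kept as the control diet group. Each diet is represented by 1 library of poly(A) RNA, the number of animals behind each is not stated in the labels, and so differences have no replicate check and no test. Values are FPKM, fragments scaled to the length of the transcript and to the size of the library, which allow levels to be set side by side between genes, and the log2 ratio is that of FPKM + 1 in CR over control. Folds are those ratios on the linear scale, and they understate differences of genes with low values.

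Superoxide, made by mitochondria and by oxidases of the contracting fibre, is turned into hydrogen peroxide by superoxide dismutases, and the peroxide is removed by catalase, glutathione peroxidases and peroxiredoxins. Glutathione peroxidases draw their electrons from glutathione and most peroxiredoxins from thioredoxin, and both carriers are reduced again with NADPH. Many of these genes carry antioxidant response elements, to which the transcription factor Nrf2 (gene Nfe2l2) binds once it escapes capture by Keap1.

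The CR library held more transcript of membrane-bound glutathione transferases, of the thioredoxin inhibitor Txnip and of the peroxiredoxin Prdx4. It held less of the haem oxygenase Hmox1, the peroxidase Gpx7 and sulfiredoxin, and lower values for the Nrf factors and Keap1. Of the 66 genes, 9 (13.6%) were higher in the CR library by 2-fold or more, where 8.01% of all 10533 genes averaging 1 FPKM or more were, and 4 (6.06%) were at least 2-fold lower, where 10.7% of all genes were. Among the 9 were 3 genes listed at 0 in the control library (Gpx8, Mgst2 and Gsta3), and among the 4 was 1 listed at 0 in the CR library, the pseudogene Prdx6-ps1. Because a listed 0 may stand for an estimate that failed, no fold is given for these genes. Over genes above 0 in both libraries, 6 of 62 redox genes (9.68%) were at least 2-fold higher, beside 6.15% of all such genes, and 3 (4.84%) were at least 2-fold lower, beside 6.85%. The median log2 ratio was 0.13 for the 66 genes and -0.03 for all genes, and 42 of the 66 (63.6%) had a ratio above 0, beside 47.9% of all genes. After rescaling the libraries to equal sums over genes outside the top 50 by level (called equal sums from here on), 35 of the 66 ratios were above 0 and the median was 0.06, beside -0.10 for all genes on that scale. Without 6 genes whose reads another gene can share in part the median was 0.05. The members were abundant, with a median level of 436 FPKM over both libraries, beside 224 FPKM for all genes.

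**Figure D1:**
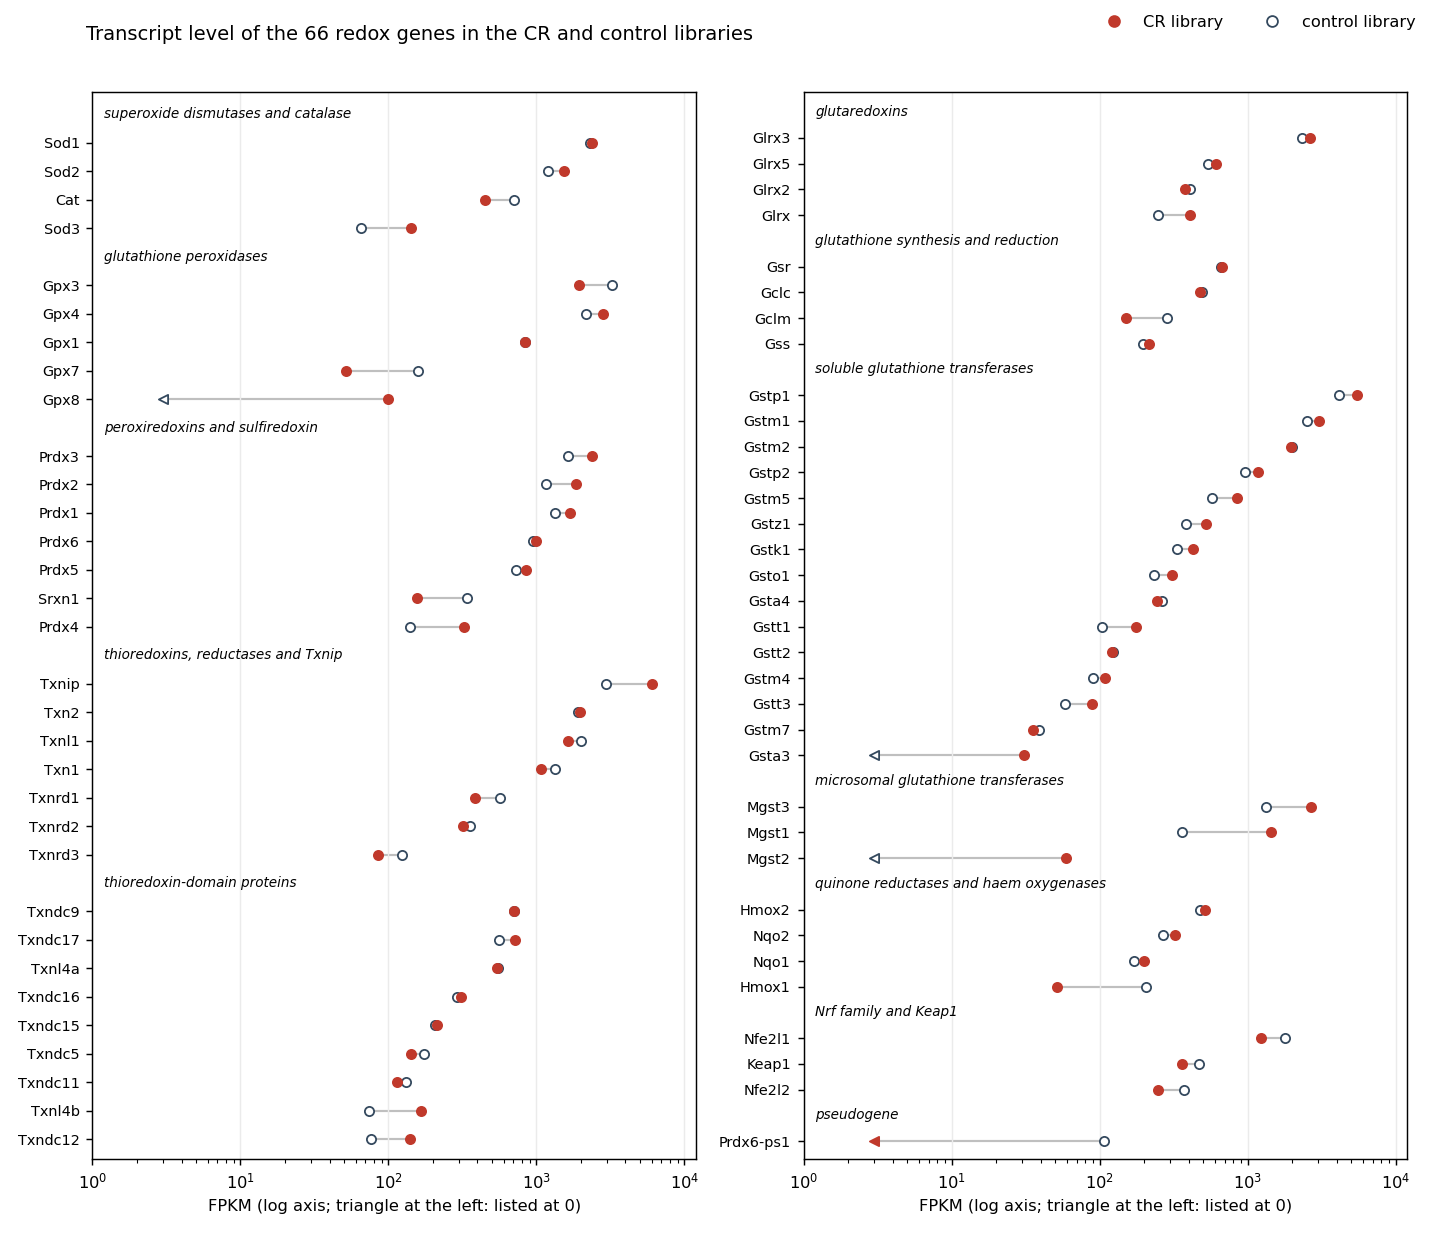
FPKM of each of the 66 redox genes in the CR library (filled points) and in the control library (open points), on a log axis, grouped by role and ordered by mean level; a triangle at the left edge marks a gene listed at 0. The pairs lie close together for most genes, and the widest gaps between points above 0 are those of Mgst1 (1431 FPKM in CR, 361 FPKM in control) and Hmox1 (51.8 FPKM in CR, 205 FPKM in control).

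The tissue label and the makeup of the dissected muscle were checked with marker genes. Skeletal muscle markers were present in both libraries, with Acta1, skeletal actin, at 354522 FPKM in CR and 372424 FPKM in control, and 0 of the 9 measured markers differed by 2-fold. Markers of other cells differed more. Of all genes, 8.01% were at least 2-fold higher and 10.7% at least 2-fold lower. Of 12 adipocyte markers, 10 were at least 2-fold higher in CR and 0 were lower, with a summed level of 27717 FPKM in CR and 8512 FPKM in control, and Adrb3 was the only one of the 12 listed at 0, in control. Fabp4 (12924 FPKM in CR, 2948 FPKM in control) and Lpl (6580 FPKM in CR, 3229 FPKM in control), which are not confined to adipocytes, gave most of these sums. All 5 genes listed as brown adipocyte markers were past 2-fold on the higher side. They summed to 737 FPKM in CR and 127 FPKM in control, where Ucp1, Otop1 and Prdm16 were listed at 0. Of this, Ppara, which is not confined to brown adipocytes, gave 185 FPKM in CR and 88.5 FPKM in control. Of 7 fibroblast markers 4 were higher (5887 FPKM in CR, 3265 FPKM in control), as were all 3 measured smooth muscle markers (1734 FPKM in CR, 719 FPKM in control) and 2 of 8 endothelial markers (3237 FPKM in CR, 2299 FPKM in control). The 3 measured erythroid genes summed to 51220 FPKM in CR, to which the globin Hba-a1 gave 48110 FPKM, and to 18703 FPKM in control, to which it gave 15925 FPKM. Tendon markers stood the other way, with 3 of 6 measured genes at least 2-fold lower and 0 higher (1033 FPKM in CR, 1740 FPKM in control). Both measured neutrophil genes were past 2-fold on the higher side (765 FPKM in CR, 83.6 FPKM in control), with S100a8 listed at 0 in control. All 8 slow-fibre genes were at least 2-fold higher in CR, with a median log2 ratio of 2.99. Of 7 measured fast-fibre genes 1 was at least 2-fold higher and 0 were at least 2-fold lower. Of the 7, 5 had ratios above 0, with a median log2 ratio of 0.73 over the 7. In such bulk tissue a different number of cells of a type and a different amount of RNA per cell cannot be told apart, and the part that these markers play in the values of the redox genes was not tested.

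The superoxide dismutases that work inside cells differed little, and the secreted one stood higher in CR. Sod1, the copper-zinc enzyme of the cytosol, was at 2363 FPKM in CR and 2297 FPKM in control, a log2 ratio of 0.04 whose sign turned to negative with equal sums. Sod2, the manganese enzyme of the mitochondrial matrix, was at 1543 FPKM in CR and 1205 FPKM in control, 1.28-fold higher. Sod3 (chromosome 5, 52755043 to 52760977, plus strand, mm9), which is secreted and binds the matrix around vessels and fibres, had 142 FPKM in CR and 65.0 FPKM in control, 2.16-fold higher. Sod3 was thus the 1 dismutase past 2-fold, at the lowest level of the 3. The summed smooth muscle markers were 2.41-fold higher in the same library, and their part in the value of Sod3 was not tested.

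Catalase, which splits hydrogen peroxide in peroxisomes, differed the other way within 2-fold. Cat (chromosome 2, 103294061 to 103325370, minus strand) was at 447 FPKM in CR and 709 FPKM in control, 1.58-fold lower in CR.

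Glutathione peroxidases differed in both directions. Gpx7 (chromosome 4, 108072822 to 108079318, minus strand), a peroxidase of the endoplasmic reticulum, was at 51.7 FPKM in CR and 159 FPKM in control, 3.04-fold lower. Its relative Gpx8 (chromosome 13, 113832971 to 113836596, minus strand), a membrane protein of the same compartment, was listed at 99.0 FPKM in CR and at 0 in control. Gpx3, the secreted peroxidase of plasma, was at 1955 FPKM in CR and 3224 FPKM in control, 1.65-fold lower. Both peroxidases lower in CR were above 0 in both libraries, and the only one past 2-fold on the higher side rested on a value of 0. Gpx1, the main peroxidase of the cytosol, stood at 840.3 FPKM in CR and 837 FPKM in control, a log2 ratio of 0.00. Gpx4, which reduces lipid peroxides in membranes, was at 2799 FPKM in CR and 2174 FPKM in control, 1.29-fold higher; 55% of the read-length stretches of its transcript also occur in another gene, mostly the pseudogene Gpx4-ps2, so its value is uncertain.

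The 6 peroxiredoxins all had log2 ratios above 0, although that of Prdx6 turned negative with equal sums, while sulfiredoxin, the enzyme that repairs over-oxidized peroxiredoxins, stood lower. Prdx4 (chromosome X, 151758463 to 151773028, minus strand), the peroxiredoxin of the endoplasmic reticulum, was at 322 FPKM in CR and 139.7 FPKM in control, 2.30-fold higher. Prdx2, a cytosolic enzyme that red blood cells hold in large amounts, was at 1860.2 FPKM in CR and 1163 FPKM in control, 1.60-fold higher. Of the 3 measured erythroid genes, Hba-a1 was 3.02-fold higher in the same library, Alas2 1.94-fold higher and Hbb-b2 1.03-fold higher. The part of red blood cells in the value of Prdx2 was not tested. Srxn1 (chromosome 2, 151931366 to 151937162, plus strand) was at 157 FPKM in CR and 341 FPKM in control, 2.17-fold lower. Among these transcripts, then, that of sulfiredoxin was lower in CR while those of the peroxiredoxins had ratios above 0, with only Prdx4 past 2-fold.

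Prdx3, of the mitochondrial matrix, was the most abundant peroxiredoxin, at 2374 FPKM in CR and 1625 FPKM in control, 1.46-fold higher. Prdx1, of the cytosol, was at 1693 FPKM in CR and 1328 FPKM in control. The remaining values lay closer together. Prdx5, found in mitochondria, peroxisomes and cytosol, was at 854 FPKM in CR and 729.5 FPKM in control; its transcript shares 28.1% of its read-length stretches with the overlapping gene Trmt112, so the value is uncertain. The Prdx6 values, for the enzyme that reduces phospholipid peroxides with glutathione, were 992 FPKM in CR and 954 FPKM in control. The pseudogene Prdx6-ps1 was listed at 0 in CR and 106 FPKM in control.

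In the thioredoxin system the inhibitor stood higher in CR and most of the carriers and reductases had ratios below 0. Txnip (chromosome 3, 96361747 to 96365780, plus strand), which binds reduced thioredoxin and restrains glucose uptake, was at 6044 FPKM in CR and 2956 FPKM in control, 2.04-fold higher. This placed it second in level among the 66 genes, and with equal sums its log2 ratio of 1.03 was 0.96, just inside 2-fold. Of its read-length stretches 16.7% also occur in Gm15441. Txn1, the cytosolic thioredoxin, was at 1075 FPKM in CR and 1346 FPKM in control, 1.25-fold lower. Txnrd1, the cytosolic reductase that recharges it with NADPH, was at 385 FPKM in CR and 571 FPKM in control, 1.48-fold lower.

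Txnrd3, a reductase best known from testis, was at 85.6 FPKM in CR and 123 FPKM in control. The mitochondrial pair differed least, with Txn2 at 1966 FPKM in CR and 1913 FPKM in control and Txnrd2 at 320.1 FPKM in CR and 356 FPKM in control. Txnl1, a thioredoxin-like protein associated with the proteasome, was at 1626 FPKM in CR and 1991 FPKM in control. Of the 7 genes of this group, 1 was past 2-fold (Txnip), where 18.7% of all genes were. Of the 7, 5 had ratios below 0, and the median log2 ratio was -0.29.

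Proteins that carry a thioredoxin domain or a thioredoxin-like name had a median log2 ratio of 0.03 over 9 genes, close to that of all genes. Txnl4b, a protein related to a splicing factor rather than a redox enzyme, was at 167 FPKM in CR and 74.5 FPKM in control, 2.23-fold higher. Txndc12, an oxidoreductase of the endoplasmic reticulum, was at 139 FPKM in CR and 75.8 FPKM in control, 1.83-fold higher. The other 7, among them Txndc5, a disulfide isomerase of the endoplasmic reticulum, and Txnl4a, a core splicing protein, had log2 ratios from -0.30 to 0.36.

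**Figure D2:**
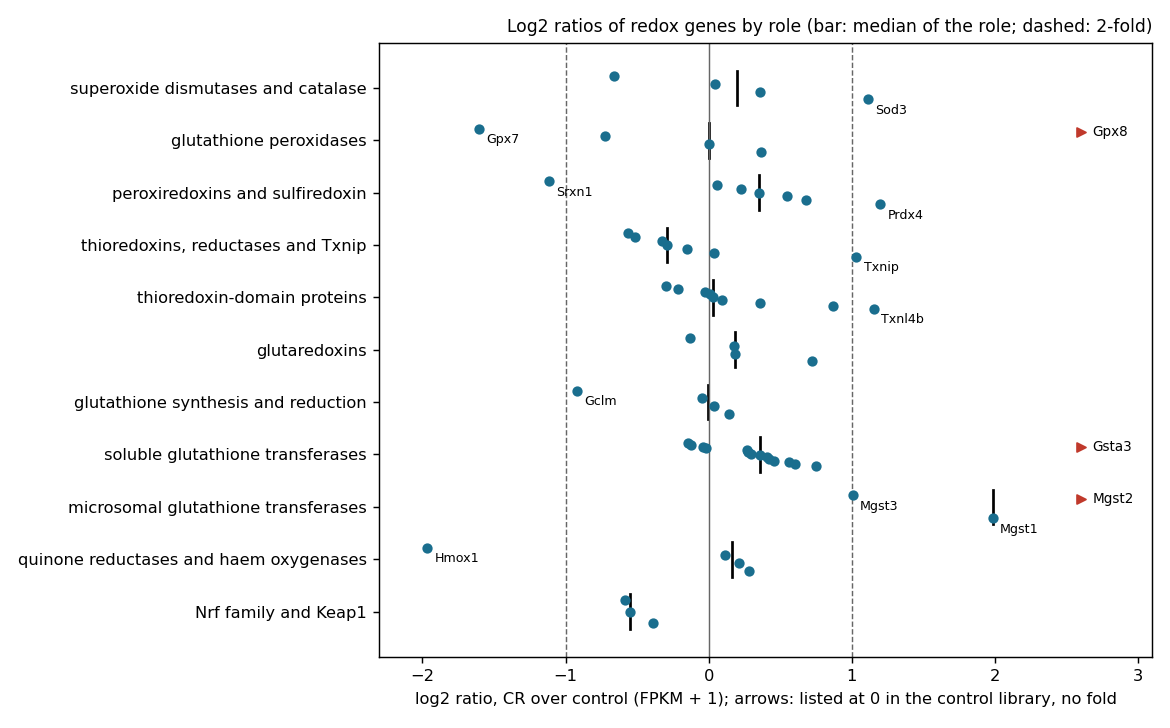
Log2 ratio of CR over control for each redox gene (points), by role; the vertical bar is the median of the role with genes listed at 0 included, dashed lines mark 2-fold, arrows at the right mark genes listed at 0 in the control library, and the pseudogene is left out. The 3 microsomal transferases lie at or beyond 2-fold higher, and the 3 genes of the Nrf family and Keap1 lie between -0.58 and -0.39.

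Glutaredoxins, which use glutathione to free proteins of mixed disulfides, had 0 of 4 genes past 2-fold, where 18.7% of all genes were. Glrx, the cytosolic form, was at 409 FPKM in CR and 248 FPKM in control, 1.65-fold higher. Glrx3, which carries iron-sulfur clusters and was the most abundant of the 4, was at 2639 FPKM in CR and 2333 FPKM in control. The mitochondrial forms Glrx5 and Glrx2 had log2 ratios of 0.18 and -0.13.

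Glutathione is made in a pair of steps, and the transcript of 1 subunit of the first enzyme stood lower in CR. Gclm (chromosome 3, 121948469 to 121969578, plus strand), the modifier subunit of glutamate-cysteine ligase that raises its activity, was at 151 FPKM in CR and 286 FPKM in control, 1.89-fold lower and so within 2-fold. Gclc, the catalytic subunit, was at 478 FPKM in CR and 492 FPKM in control. Gss, which adds glycine to complete glutathione, was at 216 FPKM in CR and 195 FPKM in control, and Gsr, which reduces oxidized glutathione with NADPH, was at 673 FPKM in CR and 657 FPKM in control. The subunits of the ligase thus differed from each other, and the reductase lay at a log2 ratio of 0.03.

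Glutathione transferases couple glutathione to reactive compounds, and 14 of the 18 had log2 ratios above 0, where 47.9% of all genes did. Of the 18, 4 were at least 2-fold higher, beside 8.01% of all genes, and 0 at least 2-fold lower, beside 10.7%. Among the 4, Mgst2 and Gsta3 were listed at 0 in control, and Mgst3 lay inside 2-fold with equal sums. The median log2 ratio of the 18 was 0.41, or 0.38 over the 16 above 0 in both libraries. The 3 microsomal enzymes (Mgst), integral membrane proteins that also reduce lipid peroxides, were all at least 2-fold higher. Mgst1 (chromosome 6, 138089040 to 138105273, plus strand), found in the endoplasmic reticulum and the outer mitochondrial membrane, was at 1431 FPKM in CR and 361 FPKM in control, 3.96-fold higher. Of the 62 redox genes above 0 in both libraries, Mgst1 had the highest ratio.

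Mgst3 (chromosome 1, 169301951 to 169324006, minus strand) was at 2676 FPKM in CR and 1333 FPKM in control, 2.01-fold higher, with a log2 ratio of 0.93 under equal sums. Mgst2 (chromosome 3, 51465115 to 51486597, plus strand) was listed at 59.1 FPKM in CR and at 0 in control. The summed adipocyte markers were 3.26-fold higher in the same library and the summed fibroblast markers 1.80-fold higher. The part of these cells in the values of the Mgst genes was not tested.

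Soluble transferases differed less. Gstp1 (chromosome 19, 4035411 to 4037969, minus strand), the pi-class enzyme and the most abundant of the 66 genes, was at 5531 FPKM in CR and 4139 FPKM in control, 1.34-fold higher. Its neighbour Gstp2 was at 1179 FPKM in CR and 958 FPKM in control. Of the read-length stretches of these transcripts, 57.5% for Gstp1 and 68.0% for Gstp2 also occur in another gene, mostly each other, so the split between them is uncertain.

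Mu-class transferases lie in a cluster on chromosome 3. Gstm1 was at 3028 FPKM in CR and 2513 FPKM in control, Gstm2 at 1956 FPKM in CR and 2010.5 FPKM in control, and Gstm5 at 847 FPKM in CR and 575 FPKM in control. The neighbours thus differed among themselves, with log2 ratios from -0.14 for Gstm7 to 0.56 for Gstm5, all within 2-fold. In the theta-class cluster on chromosome 10, Gstt1 was at 176 FPKM in CR and 105 FPKM in control (1.68-fold higher), Gstt3 at 89.0 FPKM in CR and 58.3 FPKM in control (1.52-fold higher), and Gstt2 at 121 FPKM in CR and 123 FPKM in control. Gstt3 shares 24.9% of its read-length stretches with Gm20441, so its value is uncertain.

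The alpha-class gene Gsta3 was listed at 31.0 FPKM in CR and at 0 in control, and its relative Gsta4, which acts on the lipid peroxidation product 4-hydroxynonenal, had a log2 ratio of -0.12. Gstz1, of tyrosine breakdown, Gsto1 of the omega class and the mitochondrial Gstk1 had log2 ratios of 0.46, 0.41 and 0.36.

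Among the quinone reductases and haem oxygenases, the inducible haem oxygenase stood apart from its constitutive partner. Hmox1 (chromosome 8, 77617504 to 77624492, plus strand), which breaks down haem and is induced by oxidants, was at 51.8 FPKM in CR and 205 FPKM in control, 3.91-fold lower, the lowest ratio of the 62 genes above 0 in both libraries. Hmox2, the constitutive form, was at 516 FPKM in CR and 475 FPKM in control, values that are uncertain because 45.3% of its read-length stretches also occur in transcripts of Cdip1. Nqo1, which reduces quinones and is widely used as a readout of Nrf2, was at 198 FPKM in CR and 171 FPKM in control, and Nqo2 at 325 FPKM in CR and 267 FPKM in control. Nqo2 overlaps Serpinb6a on the other strand (2424 FPKM in CR, 3836 FPKM in control), and 18.3% of its read-length stretches also occur there. Of 6 measured macrophage markers 1 was at least 2-fold higher and 0 were lower, and they summed to 765 FPKM in CR and 613 FPKM in control; their part in the value of Hmox1 was not tested.

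The transcription factors that drive these genes, and their inhibitor, all had ratios below 0 within 2-fold. Nfe2l1 (Nrf1), which controls proteasome genes as well as antioxidant genes, was at 1226 FPKM in CR and 1790.5 FPKM in control, 1.46-fold lower. Nfe2l2 (chromosome 2, 75513576 to 75543254, minus strand) was at 248 FPKM in CR and 371 FPKM in control, a log2 ratio of -0.58. Keap1 was at 360.4 FPKM in CR and 473 FPKM in control, 1.31-fold lower. All 3 ratios kept their sign under every scaling tried. The transcript of Nrf2 does not measure its protein, which Keap1 controls by degradation.

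The genes of this set that are best known as inducible Nrf2 targets did not differ together. Of 9 such genes, 6 had ratios below 0 and 3 above, where 47.9% of all genes were above 0, and the median log2 ratio was -0.32. Of the 9, 2 were at least 2-fold lower (Hmox1 and Srxn1), beside 10.7% of all genes, and 0 at least 2-fold higher, beside 8.01%. The 9 were chosen by hand with earlier results known. They hold no glutathione transferase, a family in which 14 of the 18 ratios were above 0. Gclm, Txnrd1, Txn1 and Gclc made up the rest of the 6, and Prdx1, Nqo1 and Gsr were the 3 above 0. With equal sums the log2 ratio of Gsr moved from 0.03 to -0.04. Srxn1, Gclm and Txnrd1 had log2 ratios of -1.12, -0.92 and -0.57, against 0.35 for Prdx1 and 0.21 for Nqo1. A list of 22 targets outside the set, also chosen by hand, had 11 measured genes. Of these, 2 were at least 2-fold higher, beside 8.01% of all genes. They were the epoxide hydrolase Ephx1 (309 FPKM in CR, 136 FPKM in control) and Ptgr1 (52.5 FPKM in CR, listed at 0 in control). The 1 at least 2-fold lower, beside 10.7% of all genes, was the autophagy receptor Sqstm1, at 1799 FPKM in CR and 4259.6 FPKM in control. This list is not a full set of Nrf2 targets. Genes of NADPH supply, such as Tkt and G6pdx, were kept in a list of their own, described below.

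The core of the antioxidant response element, TGACNNNGC on either strand, was looked for in the 250 bases before and 50 bases after each RefSeq gene start (GRCm38.p6, a later build than the mm9 of the table). A promoter was found for 56 of the 66 genes, and 12 of the 56 (21.4%) held the letters in at least 1 promoter, beside 14% of 27025 genes. Counted by promoter, of which a gene can have several, 12 of the 81 promoters of these members (14.8%) held them, beside 12.4% of 32851. Genes with the letters differed in both directions, from Gclm at -0.92 to Mgst1 at 1.98 among those with the site before the gene start and values above 0. The sites of Gclm, Txnrd1 and Nfe2l2, with ratios below 0, and of Prdx1, with a ratio above 0, are printed to show this, on the strand of the gene and with the match in capitals; all but the Nfe2l2 match lie on the opposite strand and are printed as its complement, read on the strand of the gene.
Gclm: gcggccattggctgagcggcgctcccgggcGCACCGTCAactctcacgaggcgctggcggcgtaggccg
Txnrd1: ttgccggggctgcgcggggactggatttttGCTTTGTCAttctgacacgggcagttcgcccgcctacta
Nfe2l2: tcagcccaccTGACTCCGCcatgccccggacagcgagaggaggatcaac
Prdx1: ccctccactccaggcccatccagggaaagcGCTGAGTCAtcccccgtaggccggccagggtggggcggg
The first lies at chr3:122245393-122245461 (plus strand) and starts its match 134 bases before the gene start, and the second at chr10:82859084-82859152 (plus strand), 92 bases before it and inside a longer annotated form of Txnrd1 but in no exon. The third lies at chr2:75704865-75704913 (minus strand), 240 bases before the start of Nfe2l2 and within an exon of the noncoding gene E030042O20Rik on the other strand, and the last at chr4:116685436-116685504 (plus strand), 133 bases before the start. The first and last overlap no annotated gene in GENCODE M21. A match is a run of letters and not a measured binding site.

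By where the proteins work, only members of mitochondria, members of the endoplasmic reticulum and the secreted pair were grouped. Other members, such as those of the cytosol, were not. The endoplasmic reticulum group is not a full list of that compartment. The haem oxygenases Hmox1 (log2 ratio -1.97) and Hmox2 (0.12) were not placed in it. Mgst1 (log2 ratio 1.98), also found in the outer mitochondrial membrane, was counted with the endoplasmic reticulum only. Among these groups, so drawn, the mitochondrial members lay closest together. Of the 8 members placed in mitochondria 0 were past 2-fold, where 18.7% of all genes were. Their log2 ratios ran from -0.15 for Txnrd2 to 0.55 for Prdx3, with a median of 0.21. Of the 10 members grouped under the endoplasmic reticulum and its membrane, 5 were at least 2-fold higher (Mgst1, Mgst2, Mgst3, Prdx4 and Gpx8), beside 8.01% of all genes. Of the 10, 1 was at least 2-fold lower (Gpx7), beside 10.7%. Mgst2 and Gpx8 were listed at 0 in control, and Mgst3 had a log2 ratio of 0.93 with equal sums, inside 2-fold. Over the 8 of these above 0 in both libraries the median log2 ratio was 0.48. Their summed level was 5343 FPKM in CR and 2666 FPKM in control, to which Mgst1 and Mgst3 contributed most. The secreted pair, Sod3 and Gpx3, differed in opposite directions.

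**Figure D3:**
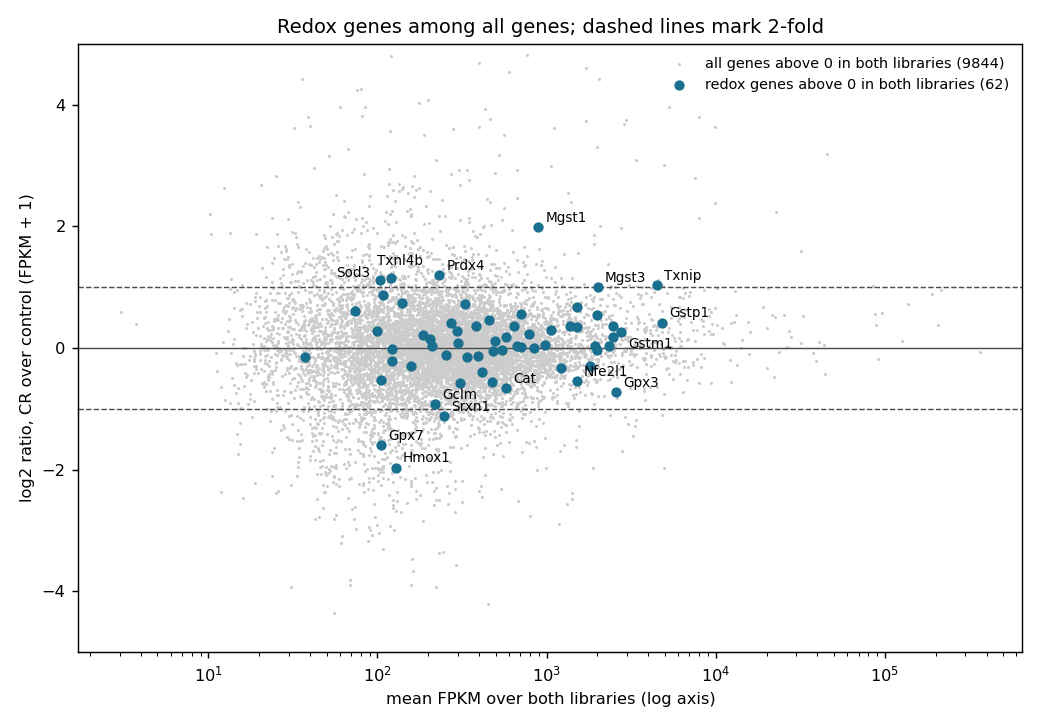
Log2 ratio of CR over control against mean FPKM over both libraries (log axis) for 9844 genes above 0 in both libraries (grey) and the 62 redox genes among them (blue); dashed lines mark 2-fold, and 5 genes lie outside the plotted range. Most redox genes sit in the body of the grey cloud, and among those named Mgst1 (1.98) lies highest and Hmox1 (-1.97) lowest.

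Transcript length went with the ratio among these genes. The longest GENCODE transcript had a median length of 1707 bases over 65 of the 66 genes, against 3204 bases over the 9542 genes of the table with a length. Across the 65 genes Spearman's rho between length and log2 ratio was -0.43 and Pearson's r with log2 length -0.35, so that shorter transcripts tended to have higher ratios. Across the 9542 genes the values were -0.17 and -0.11. These include genes listed at 0 in a library; over genes above 0 in both, rho was -0.38 and r -0.28 across 62 redox genes, and -0.18 and -0.17 across 8938 genes. These are descriptions of a single pair of libraries, which all genes share, and genes are not independent replicates. With GC content rho was -0.18 across the 65 genes and -0.11 across the 9542 genes, and over genes above 0 in both libraries -0.10 and -0.13.

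Supply of NADPH, on which glutathione reductase and thioredoxin reductase depend, was described with a list of 15 genes, of which 13 were measured. Of these, 3 (23.1%) were at least 2-fold higher in CR, beside 8.01% of all genes, and 1 (7.69%) was at least 2-fold lower, beside 10.7%. The median log2 ratio was 0.57. Tkt, the transketolase of the pentose phosphate pathway, was at 3163 FPKM in CR and 236 FPKM in control, 13.3-fold higher. G6pdx, which starts that pathway and makes NADPH, was at 876 FPKM in CR and 118 FPKM in control, 7.37-fold higher. Idh1, the cytosolic isocitrate dehydrogenase, was at 656 FPKM in CR and 269 FPKM in control, 2.44-fold higher.

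Malic enzyme Me1, the most abundant of the list, was at 6711 FPKM in CR and 3590.5 FPKM in control, 1.87-fold higher. The lower gene was the mitochondrial folate enzyme Mthfd2, at 31.4 FPKM in CR and 70.3 FPKM in control. G6pdx and Me1 also supply NADPH for fatty acid synthesis in adipocytes. The summed adipocyte markers were 3.26-fold higher in the same library, and their part in the values of the NADPH genes was not tested.

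Cysteine limits glutathione synthesis, and genes of glutathione breakdown, transport and cysteine supply had a median log2 ratio of 0.11 over 15 measured genes of 19. Of the 15, 1 (6.67%) was at least 2-fold higher, beside 8.01% of all genes, and 3 (20%) at least 2-fold lower, beside 10.7%. The higher gene was Cdo1, the cysteine dioxygenase that turns cysteine towards taurine, at 521 FPKM in CR and 41.9 FPKM in control, 12.2-fold higher. Among the 3 lower, Ahcy, the hydrolase that releases homocysteine, was at 107 FPKM in CR and 347 FPKM in control. The amino acid transporter Slc7a5 was at 25.7 FPKM in CR and 104 FPKM in control. Cth, which makes cysteine from cystathionine, was listed at 0 in CR and 41.5 FPKM in control. Glo1, glyoxalase 1, which uses glutathione to clear methylglyoxal, was the most abundant, at 2624 FPKM in CR and 2431 FPKM in control.

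Genes of selenoproteins and of selenocysteine insertion, on which the main glutathione peroxidases and the thioredoxin reductases depend, had a median log2 ratio of 0.21. Of the 12 measured genes 0 were past 2-fold, where 18.7% of all genes were. Sepw1, a small selenoprotein abundant in muscle, was at 14045 FPKM in CR and 10564 FPKM in control. Among methionine sulfoxide reductases and sestrins, 1 of 8 (12.5%) was at least 2-fold higher, beside 8.01% of all genes, and 1 (12.5%) at least 2-fold lower, beside 10.7%. The higher gene was the mitochondrial reductase Msrb2 (383 FPKM in CR, 152 FPKM in control). The lower was the sestrin Sesn2, a stress-induced regulator of mTORC1, at 18.6 FPKM in CR and 79.5 FPKM in control. Park7, a redox-sensitive protein and the most abundant of that list, was at 4644 FPKM in CR and 5817 FPKM in control.

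**Figure D4:**
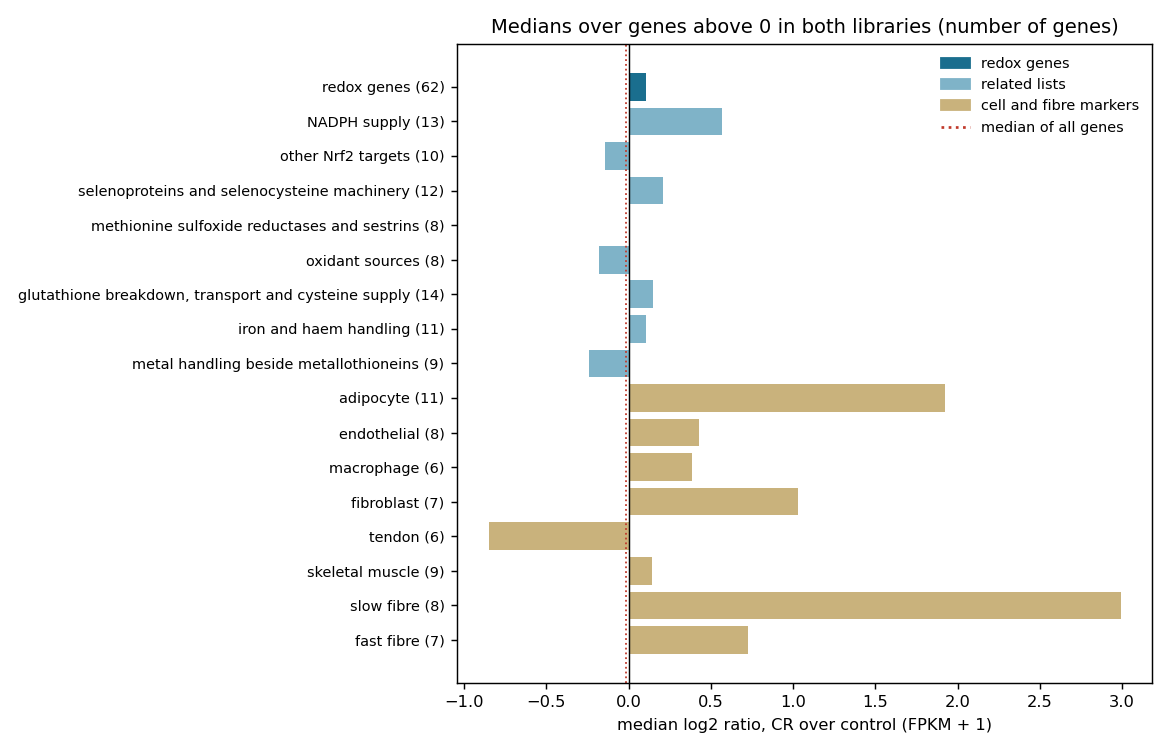
Median log2 ratio of CR over control for the redox genes, related lists and marker lists, over genes above 0 in both libraries (their number in brackets), for lists with at least 5 such genes; the dotted line is the median of all genes. The redox genes (0.10) lie near the line, NADPH supply stands at 0.57, and the slow-fibre (2.99) and adipocyte (1.93) markers stand furthest from it.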

How the data were processed

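Poly(A) RNA of thigh muscle was sequenced as 76-base read pairs in 1 library per diet. Per the submitters' processing notes, TopHat 1.2.0, Cufflinks and Cuffdiff were used with build mm9; for options and annotation, nothing is given in the sources used here. FPKM by locus were deposited, per the file headers. The lowest value is exactly 1 in both columns, so the authors are taken to have added 1, which was subtracted; this offset is inferred. Sequencing depth is unknown, and no counting interval is given. The kit, as the labels describe it, does not mark strand, so reads of genes that overlap on opposite strands cannot be separated.

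Loci with a single symbol were kept and loci of a symbol summed. Log2 ratios of FPKM + 1 (CR over control) were computed for genes averaging 1 FPKM or more, and genes at least 2-fold apart were counted. No test was possible with 1 library per group. Members, groups and lists were chosen with earlier results of these data known. By rule the text may name every member, with values for those at least 1.5-fold apart, listed at 0 or among the 10 most abundant, and, of related lists, genes at least 2-fold apart and the most abundant. Values of other members and related genes, such as Gpx1, Gclc, Nqo1, Ccs and Nos3, were added after they were seen. Read sharing is the share of 76-base stretches of the longest GENCODE M21 transcript found in transcripts of another gene. Promoter sequences are RefSeq's (GRCm38.p6). Counting was tested on simulated data. Python 3.11.15, numpy 2.4.6, pandas 2.3.3 and matplotlib 3.10.9 were used.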

Additional observations from a re-analysis of the deposited data

How the results depend on the processing

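The counts of 9 redox genes higher and 4 lower in CR, and their median log2 ratio of 0.13, read the same with a pseudocount of 0.1 or 5 FPKM, no filter, a filter at 10 FPKM and the largest locus of a symbol. The median was 0.15 when centred on the median gene and 0.06 with equal sums. With equal sums the counts were 7 and 4, and Mgst3 (0.93) and Txnip (0.96) lay inside 2-fold. Keeping genes that averaged 100 FPKM or more they were 6 and 3, of 59 genes, and without genes listed at 0 they were 6 and 3, of 62. A fold of 1.5 gave 14 higher and 7 lower. Of all genes 1968 were at least 2-fold apart, against 807 with the filter at 100 FPKM, 1279 without genes listed at 0 and 3712 at a fold of 1.5. Settings chosen after the data were seen left out Prdx6-ps1, Txnl4a and Txnl4b (8 higher, 3 lower, median 0.14) or the 6 genes that share at least 20% of their read-length stretches (9 higher, 4 lower, median 0.05). None of the genes past 2-fold changed sign under these settings. No paired analysis was possible because each group has a single library. Depth is unknown, so precision at low FPKM cannot be stated.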

Other observations

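The merged locus of the metallothioneins Mt1 and Mt2 (chromosome 8, 96696518 to 96704227, mm9), which bind zinc and copper and are induced by metals and glucocorticoids, was at 932 FPKM in CR and 1481 FPKM in control, 1.59-fold lower. Mt3 was listed at 0 in CR and 65.2 FPKM in control. Of 10 measured genes of metal handling, 2 (20%) were at least 2-fold lower, beside 10.7% of all genes, and 0 at least 2-fold higher, beside 8.01%. The 2 were Mt3 and the copper transporter Atp7a (48.4 FPKM in CR, 174 FPKM in control). The copper chaperone of Sod1, Ccs, was at 402 FPKM in CR and 342 FPKM in control.

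Iron genes had 1 of 11 (9.09%) past 2-fold, where 18.7% of all genes were. It was the transferrin receptor Tfrc, at 1368 FPKM in CR and 505 FPKM in control, 2.70-fold higher. Ferritin heavy chain Fth1, which stores iron, was at 17805 FPKM in CR and 22453 FPKM in control. Of 8 measured genes of oxidant-producing enzymes and related proteins, 1 (12.5%) was at least 2-fold higher, beside 8.01% of all genes. At least 2-fold lower were 0, beside 10.7%. The higher gene was the monoamine oxidase Maob (493 FPKM in CR, 199 FPKM in control). The nitric oxide synthases Nos3, of endothelium, and Nos1, of muscle fibres, were at 159 FPKM in CR against 307 FPKM in control and at 237 FPKM in CR against 369 FPKM in control. Aox1, an aldehyde oxidase and the most abundant of that list, was at 409 FPKM in CR and 503 FPKM in control.

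Other loci of the table overlapped 17 members, and for 8 of these members a named gene was among them. Across Prdx5, 2 unnamed plus-strand loci were listed at 4083 FPKM in CR against 2290 FPKM in control and at 1706 FPKM in CR against 1027 FPKM in control, both above the values of Prdx5 itself. Another, reaching from Gstp1 into Gstp2 on the plus strand, was at 2663 FPKM in CR and 1518 FPKM in control. Inside Nfe2l1 an unnamed plus-strand locus was at 1237 FPKM in CR and 1516 FPKM in control. The locus that merges Txndc6 with 1600029I14Rik was at 101 FPKM in CR and 83.8 FPKM in control.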
